A study of Mus musculus with 4 samples.

Results

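The genes described here are 8 genes of the astrocyte endfoot and of astrocyte coupling, Aqp4, Dtna, Dmd, Dag1, Gja1, Gjb6, Mlc1 and Hepacam, out of 31053 genes in the count tables. They were chosen by name and read in all 4 libraries, by cell class, by astrocyte group, by region label and by AAV label. Astrocytes wrap brain vessels with endfeet, where the water channel Aqp4 is held in place by dystrophin (Dmd), α-dystrobrevin (Dtna) and dystroglycan (Dag1), which binds laminin of the basement membrane. Connexins encoded by Gja1 and Gjb6 form the gap junctions that couple astrocytes into a network. Mlc1 encodes a membrane protein of astrocyte contacts at vessels and at the brain surface, and Hepacam encodes GlialCAM, the adhesion molecule that brings the Mlc1 protein to those contacts.

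Single-nucleus RNA-seq was made from brain tissue labelled cortex or striatum of male C57BL/6J mice, which were injected into the cisterna magna at 4 weeks of age and taken at 8 weeks. AAV-VEGF-C delivered mouse VEGF-C by an AAV9 vector, and AAV-CTRL delivered a soluble part of VEGF receptor 3 that does not bind VEGF-C, so all mice carried a vector that gave a secreted protein. For either vector the tissue of 5 mice was combined, the same mice gave both regions, and each of the 4 groups is 1 library. Unless stated otherwise, 4 values in a row give both libraries labelled cortex and then both labelled striatum, in each pair AAV-CTRL before AAV-VEGF-C. With 1 library per group no difference has a replicate check and no test was run, so every difference describes a pair of libraries and not a treatment.

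The libraries held 17168, 20370, 23724 and 17466 nuclei with totals of 63165470 to 78332657 UMIs (unique molecular identifiers, 1 per counted transcript), and pairs of libraries shared 76 to 118 cell barcodes, at most 0.658% of the smaller library. Striatal neuron genes did not follow the region labels. Ppp1r1b, for example, stood at 63.2, 76.3, 18.9 and 18.5 CPM (UMIs per 1000000 UMIs), higher in the libraries labelled cortex, and the thalamic gene Tcf7l2 at 43.6, 41.1, 304 and 338 CPM. Libraries are therefore called by their labels throughout. Vegfc, the delivered gene, was at 12.3, 11.8, 13.0 and 11.8 CPM and does not separate the AAV labels. Parentheses after a level, share or log2 ratio hold its 95% interval, which covers counting error only.

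Nuclei were placed in classes by marker genes that did not include the 8 genes, and class names end in "-like" because they rest on those markers. The astrocyte-like class had 1897, 2344, 2931 and 2008 nuclei with medians of 1787, 1820.5, 1780 and 2072.5 UMIs. All 16 astrocyte markers were over the floor of 3 UMIs in every library, with summed levels of 20640, 21489, 19138 and 18247 CPM. The class was named from these markers, so their presence is no separate support for the name. Markers of other cell types were also read in these nuclei. The 12 oligodendrocyte markers summed to 996, 918, 2291 and 2507 CPM, higher under the striatum label, and the 15 pan-neuronal markers to 5253, 5098, 4442 and 4499 CPM. All markers of both lists were also over the floor of 3 UMIs in every library, so passing that floor does not tell the cell types apart. The part of these markers in the results below was not tested. Under the cortex label the class came mostly from other clusters than under the striatum label, which is described with the astrocyte clusters.

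In the GENCODE annotation of GRCm38, Dmd lies at chrX:82948870-85206141 (plus), Dag1 at chr9:108204634-108263958 (minus), Gja1 at chr10:56377330-56402513 (plus), Gjb6 at chr14:57123303-57133611 (minus), Mlc1 at chr15:88955884-88979007 (minus) and Hepacam at chr9:37367351-37386575 (plus). Counts are per gene, so transcripts of 1 gene that share a 3′ end are not separated. That bears on Dmd, where the annotation has a transcript of 79 exons and one of 18 exons that starts near the 3′ end of the gene. Dmd also overlaps Tsga8, which had at most 1 UMI in astrocyte-like nuclei of a library.

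The 250 bases before the start of Gja1 and Gjb6 are shown because both are astrocyte connexin genes that differed in the classes that held them. Those before 2 starts of Dmd, of several in the annotation, are shown because counts of that gene pool its transcripts. All these stretches were taken from RefSeq (GRCm38.p6), each written 5′ to 3′ along the strand of its gene. Gja1 is from chr10:56377050-56377299 (plus), Gjb6 from chr14:57133612-57133861 (minus), and Dmd from chrX:82948620-82948869 and chrX:85048045-85048294 (plus). Capitals mark a match to 1 of 4 motifs searched on both strands, a TATA box (TATAAA), a half-site of NFI factors (TTGGCA), a SOX core (ACAAAG) and a STAT site (TTCNNNGAA).
Gja1: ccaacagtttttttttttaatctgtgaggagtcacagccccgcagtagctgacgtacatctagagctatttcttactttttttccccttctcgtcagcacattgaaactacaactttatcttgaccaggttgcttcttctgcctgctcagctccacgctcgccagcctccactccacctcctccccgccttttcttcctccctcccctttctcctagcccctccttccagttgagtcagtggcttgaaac
Gjb6: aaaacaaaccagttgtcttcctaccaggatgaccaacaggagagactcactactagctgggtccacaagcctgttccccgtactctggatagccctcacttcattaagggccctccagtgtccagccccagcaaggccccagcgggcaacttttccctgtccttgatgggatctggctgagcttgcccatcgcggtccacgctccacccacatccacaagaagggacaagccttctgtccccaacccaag
Dmd, long transcript: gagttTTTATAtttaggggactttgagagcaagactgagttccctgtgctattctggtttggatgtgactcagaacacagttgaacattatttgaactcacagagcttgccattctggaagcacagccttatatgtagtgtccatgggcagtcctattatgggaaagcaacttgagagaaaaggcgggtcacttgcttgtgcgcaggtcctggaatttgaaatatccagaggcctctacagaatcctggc
Dmd, short transcript: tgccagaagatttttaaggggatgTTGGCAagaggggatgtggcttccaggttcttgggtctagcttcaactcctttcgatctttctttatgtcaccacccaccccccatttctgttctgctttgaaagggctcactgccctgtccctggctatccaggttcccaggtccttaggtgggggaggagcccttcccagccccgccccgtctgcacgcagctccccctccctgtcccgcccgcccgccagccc
No motif matched in the Gja1 and Gjb6 windows, nor in the windows of Dag1 and Mlc1. The window of the long Dmd transcript held a TATA box 245 bases before the start, that of the short transcript an NFI half-site 226 bases before it, and that of Hepacam an NFI half-site 39 bases before it. Of the 32851 windows of this length in the RefSeq table, 12.4% held the TATA box, 12.3% the NFI half-site, 16.5% the SOX core and 7.02% the STAT site, so a match or its absence is a description of these letters only.

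Aqp4, the water channel (chr18:15389496-15410982, minus strand, GRCm38), was found mainly in the astrocyte-like and ependymal-like classes. Its level in astrocyte-like nuclei was 383 (363 to 405), 346 (329 to 364), 799 (776 to 823) and 571 (548 to 594) CPM. Ependymal cells are the ciliated lining of the ventricles. In the ependymal-like class, a small one of 84, 53, 204 and 121 nuclei that rests on markers alone, Aqp4 was at 575, 607, 381 and 452 CPM. The ependymal-like class was thus the higher of the pair under the cortex label and the astrocyte-like class under the striatum label, so neither stood above the other in all libraries. Smooth muscle-like nuclei followed at 79.1 to 217 CPM. Neurons outside the named neuron classes, which should lack Aqp4, had 4.13, 3.94, 15.1 and 8.81 CPM. A UMI of Aqp4 was present in 36.8%, 35.8%, 54.1% and 51.2% of astrocyte-like nuclei and in 2.47%, 2.43%, 7.70% and 5.31% of these neurons, whose medians of 5844, 5909, 4879 and 5791 UMIs were deeper. After thinning each nucleus to 1000 UMIs the astrocyte shares were 25.3%, 23.7%, 40.0% and 32.2%.

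Dtna, which anchors syntrophins to the dystrophin complex (chr18:23415135-23659715, plus strand), was an astrocyte gene in all 4 libraries. Astrocyte-like nuclei had 1289, 1300, 1069 and 954 CPM, and the next class, ependymal-like, had 397, 434, 424 and 590 CPM, so that the levels of the classes did not overlap. It overlaps an antisense gene, Gm47898, which had 50, 43, 34 and 33 UMIs in astrocyte-like nuclei. Dtna was still read in neurons, at 241 to 274 CPM in those outside the named classes, and astrocyte-like nuclei therefore held 22.8% to 27.2% of its UMIs. Dmd, the cytoskeletal end of the complex, had another order. Ependymal-like nuclei had 2010, 2062, 2102 and 1714 CPM of Dmd, followed by excitatory neuron-like nuclei at 1134, 1132, 1098 and 715 CPM, oligodendrocyte precursor (OPC)-like nuclei at 954 to 1228 CPM and smooth muscle-like nuclei at 833 to 1181 CPM. These 3 followers overlapped in their ranges over libraries. Astrocyte-like nuclei, at 577, 534, 834 and 735 CPM, held 4.25% to 10.2% of all Dmd UMIs. In the sum of Dmd and Dtna UMIs, Dmd made up 30.9%, 29.1%, 43.8% and 43.5% in astrocyte-like nuclei and 83.5%, 82.6%, 83.2% and 74.4% in ependymal-like nuclei. Dag1, the laminin receptor, was the flattest of the 8 genes, with 148, 149, 154 and 157 CPM in astrocyte-like nuclei, 223, 214, 270 and 304 in smooth muscle-like nuclei and 43.4 to 57.5 in oligodendrocyte-like nuclei.

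The connexin genes parted outside astrocytes. Gja1 was highest in astrocyte-like nuclei in every library, at 536 (512 to 561), 577 (555 to 600), 763 (740 to 787) and 711 (686 to 737) CPM. Ependymal-like nuclei had 463, 354, 417 and 438 CPM and fibroblast-like nuclei had 420, 375, 376 and 405 CPM of Gja1. In the cortex AAV-CTRL library the intervals of the astrocyte-like and ependymal-like classes overlapped. Gjb6 was highest in fibroblast-like nuclei, at 290, 309, 315 and 317 CPM, against 106 (95.7 to 118), 109 (99.2 to 119), 162 (151 to 173) and 169 (157 to 182) in astrocyte-like nuclei. In ependymal-like nuclei Gjb6 had 1, 0, 11 and 10 UMIs in all. Neurons outside the named classes had 1.98, 2.58, 4.97 and 3.98 CPM of Gjb6.

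The share of Gjb6 among the UMIs of both connexins does not depend on scaling. It was 16.5%, 15.9%, 17.5% and 19.2% in astrocyte-like nuclei, 40.8%, 45.2%, 45.6% and 44.0% in fibroblast-like nuclei, and 33.0%, 28.7%, 29.6% and 36.1% in endothelial-like nuclei. In ependymal-like nuclei it was 0.41%, 0%, 3.41% and 3.03%, where 0 of 133 UMIs leaves room for a share of up to 2.74%. The astrocyte, fibroblast and ependymal intervals did not overlap in any library. At 1000 UMIs a nucleus, a UMI of each connexin was found in 3.99%, 4.21%, 8.43% and 7.31% of astrocyte-like nuclei. Unthinned, these shares were 11.2%, 12.2%, 17.8% and 20.8%.

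**Figure D1:**
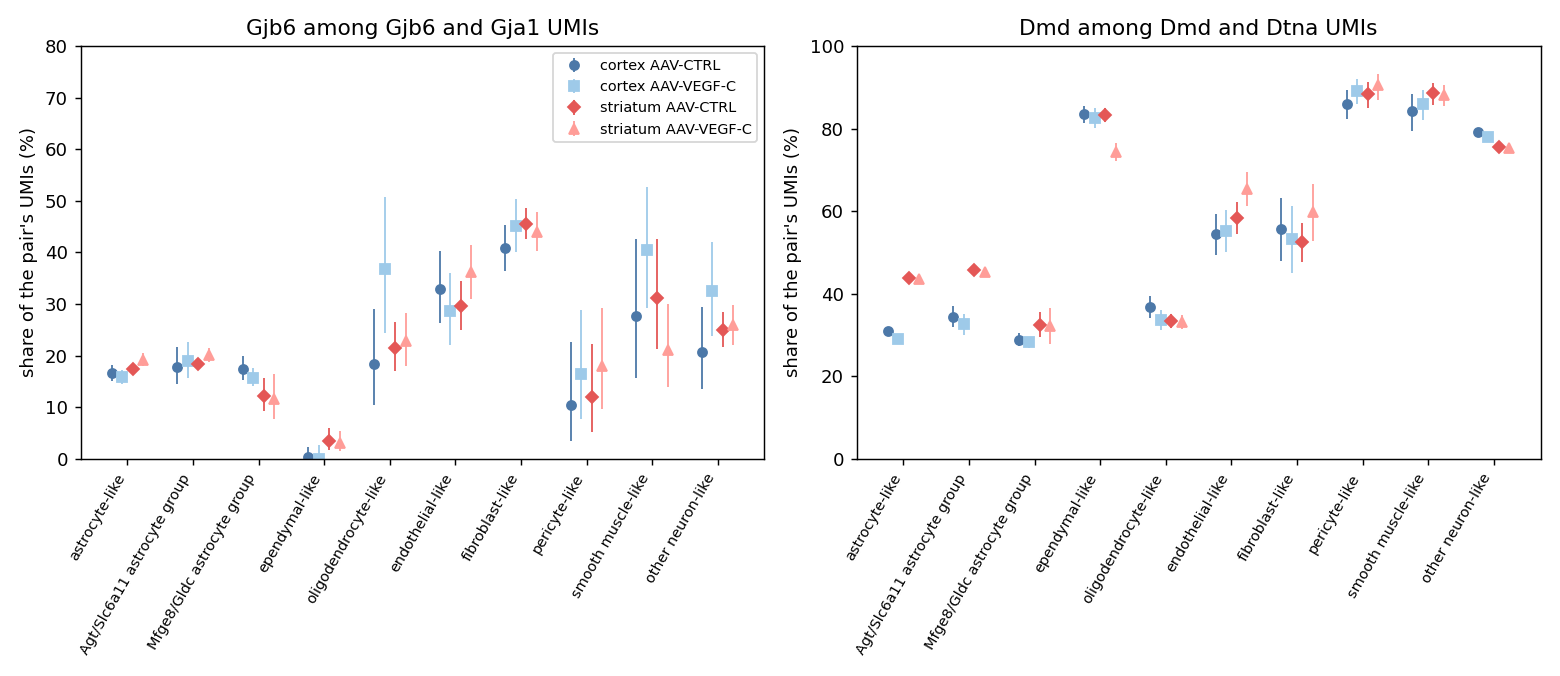
Share of Gjb6 among Gjb6 and Gja1 UMIs (left) and of Dmd among Dmd and Dtna UMIs (right), in percent, by class and library, with exact binomial 95% intervals. Ependymal-like nuclei had at most 3.41% Gjb6 and fibroblast-like nuclei at least 40.8%, and Dmd was 29.1% to 43.8% of its pair in astrocyte-like nuclei against 74.4% to 83.5% in ependymal-like nuclei.

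Mlc1 and Hepacam, whose proteins bind each other, had different leading classes. Mlc1 was highest in ependymal-like nuclei, at 552, 591, 326 and 463 CPM, against 230 (214 to 246), 238 (224 to 253), 253 (240 to 266) and 206 (193 to 220) in astrocyte-like nuclei. Hepacam was highest in astrocyte-like nuclei, at 408, 419, 432 and 453 CPM, and oligodendrocyte-like nuclei had 304, 308, 328 and 343 CPM, while their Mlc1 was only 17.8, 15.7, 24.6 and 20.2 CPM. Hepacam in astrocyte-like nuclei overlapped in its intervals with ependymal-like nuclei in the cortex AAV-CTRL library. Of the 8 genes, Dtna, Gja1 and Hepacam had their highest level in astrocyte-like nuclei in all libraries, and Aqp4 under the striatum label only.

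**Figure D2:**
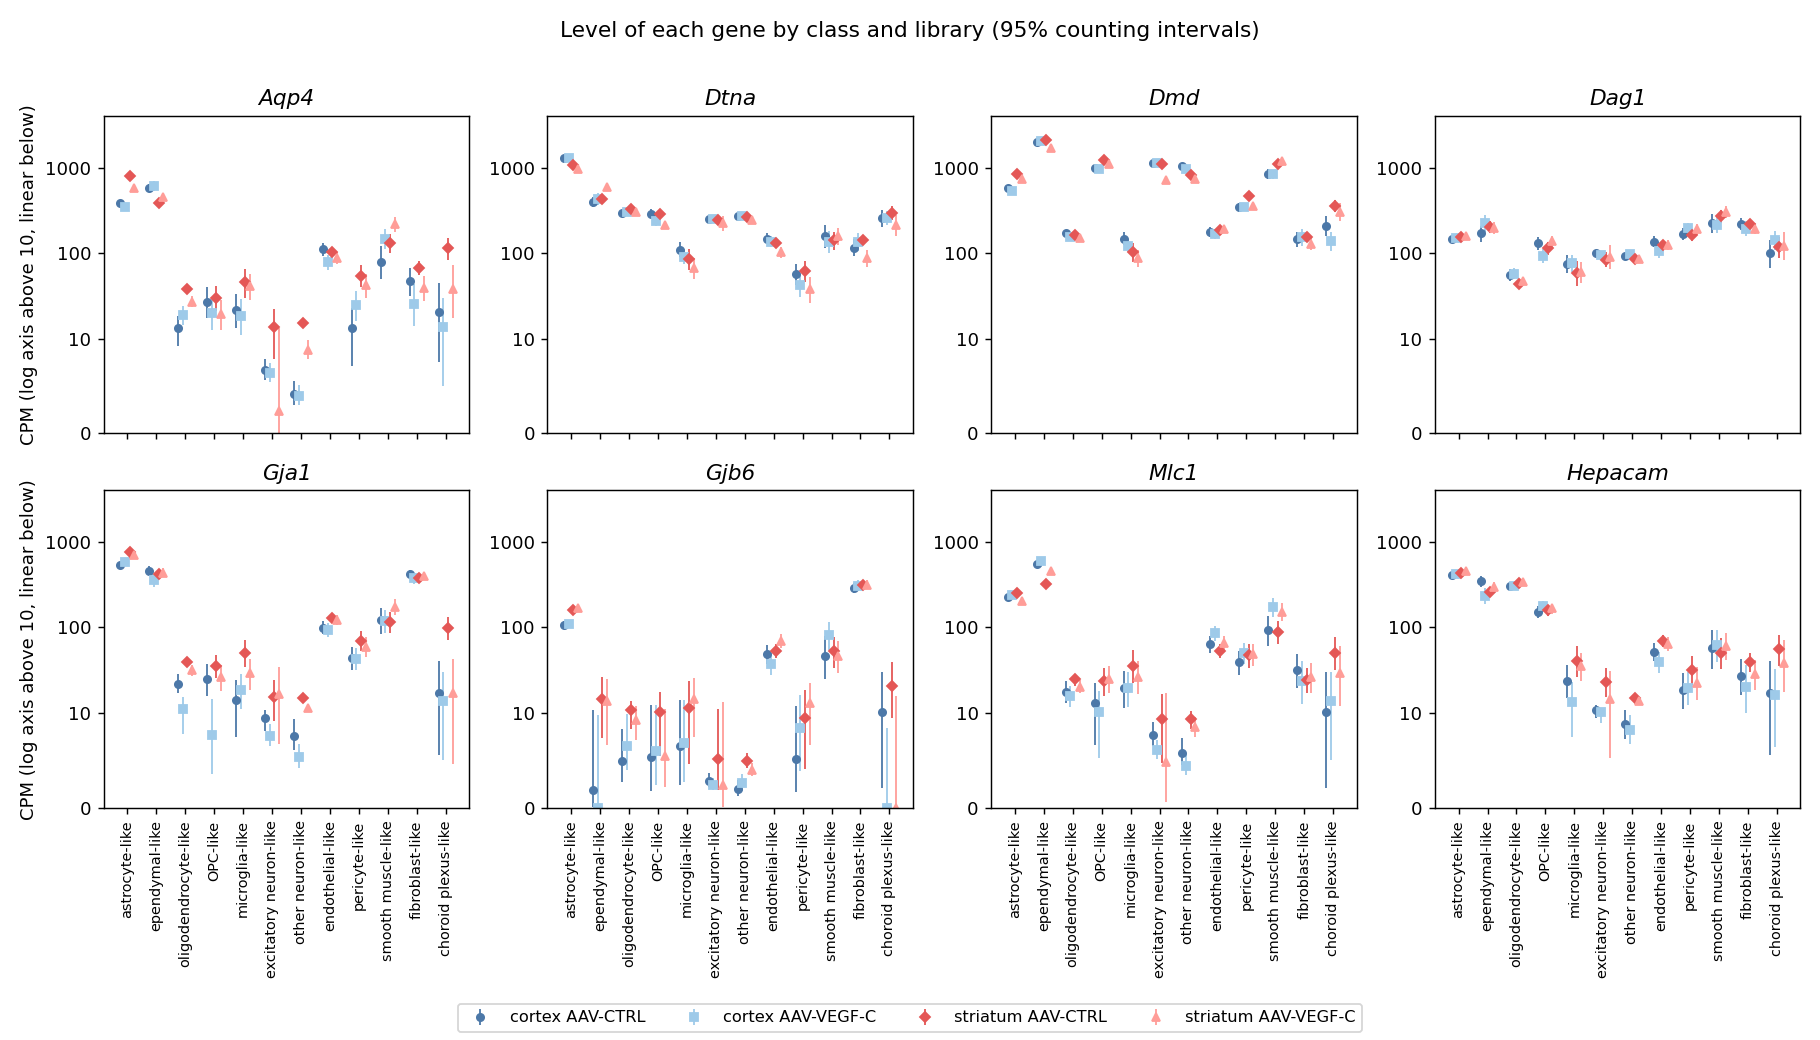
Level of each of the 8 genes in CPM (logarithmic axis above 10, linear below) in 12 classes, 1 symbol per library, with exact Poisson 95% intervals. Dtna stands apart in astrocyte-like nuclei, Gjb6 is highest in fibroblast-like and Dmd and Mlc1 in ependymal-like nuclei, and Dag1 has the smallest spread over classes of the 8 genes.

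Patterns over classes were compared with Pearson's r of log2(CPM + 1) over 64 profiles (16 classes in 4 libraries), which share libraries and are not independent. Among 15237 genes the one most like Aqp4 was Mlc1 (r = 0.95), and the next were Prdx6 (0.92) and Fgfr3 (0.91). Gja1 was most like Slc7a2 (0.91), C4b (0.90) and Aqp4 (0.89), while Gjb6 was most like Slc7a11 (0.88), Slc13a3 (0.88) and Gjb2 (0.85). Mlc1 was followed by Prdx6 (0.93) and Mt2 (0.92), and Hepacam by Megf10 (0.93), Kcnj10 (0.89) and Asrgl1 (0.88). Of the dystrophin complex, Dtna came closest to Fam228b (0.83), Fam184a (0.80) and Hdac8 (0.80), Dmd to Gm32834 (0.74), Ppp1r14c (0.72) and Fmn2 (0.71), and Dag1 to Sdc2 (0.89), 9530026P05Rik (0.83) and Plce1 (0.83). Between Dmd and Dtna r was 0.44, and between Dmd and Gja1 it was 0.01.

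Astrocyte-like nuclei were split by their UMIs of Agt and Slc6a11, genes of astrocytes outside the telencephalon, against those of Mfge8 and Gldc, genes of telencephalic astrocytes. The Agt/Slc6a11 group had 371, 391, 2359 and 1675 nuclei (19.6%, 16.7%, 80.5% and 83.4%) and the Mfge8/Gldc group 876, 1201, 247 and 115 (46.2%, 51.2%, 8.43% and 5.73%), and the rest had equal sums. Only 7 and 11 nuclei of the cortex label were in astrocyte cluster 1, described below. In that cluster 92.8% of nuclei were of the Agt/Slc6a11 group. The astrocyte marker Slc1a2 was at 6195, 6626, 3249 and 3069 CPM in that group. In the Mfge8/Gldc group it was at 7011, 7457, 6542 and 6538 CPM. The Agt/Slc6a11 group thus need not hold the same kind of astrocyte under both region labels. Aqp4 was the member with the clearest difference between the groups. It was at 531, 419, 838 and 583 CPM in the Agt/Slc6a11 group and at 311, 324, 484 and 419 in the Mfge8/Gldc group, higher in the former in all libraries. The log2 ratios were 0.77 (0.58 to 0.97), 0.37 (0.18 to 0.56), 0.79 (0.59 to 1.00) and 0.48 (0.20 to 0.77). Under the striatum label this rested on astrocyte cluster 6, a small cluster described below, without which the ratios were 0.15 and −0.02. In the libraries labelled cortex they were 0.68 and 0.23 without it.

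Gjb6 differed under the striatum label, at 172 against 113 CPM and at 181 against 101 CPM, log2 ratios of 0.61 (0.19 to 1.05) and 0.85 (0.28 to 1.47). Under the cortex label it was 119 against 111 and 129 against 115 CPM, with ratios of 0.09 and 0.17 whose intervals held 0. Gja1 gave ratios of 0.05, −0.17, −0.09 and −0.09. The share of Gjb6 in the connexin pair was therefore 18.4% and 20.1% in the Agt/Slc6a11 group against 12.2% and 11.6% in the Mfge8/Gldc group under the striatum label, and 17.9% and 19.0% against 17.4% and 15.7% under the cortex label. Dtna and Dmd, which belong to 1 complex, went in opposite directions. Dtna was lower in the Agt/Slc6a11 group, with ratios of −0.11, −0.15, −0.50 and −0.41, and Dmd was higher, with 0.27, 0.15, 0.30 and 0.40, though the intervals of Dtna in the cortex AAV-CTRL library and of Dmd in the cortex AAV-VEGF-C library held 0. Dmd was thus 34.5%, 32.6%, 45.6% and 45.3% of the UMIs of the pair in the Agt/Slc6a11 group and 28.8%, 28.2%, 32.5% and 32.1% in the Mfge8/Gldc group. Mlc1 gave 0.34, −0.16, −0.37 and −0.48, above 0 in the cortex AAV-CTRL library and below it in the other libraries, and the interval of the cortex AAV-VEGF-C library held 0. The ratios of Dag1 and Hepacam lay between −0.25 and 0.19, with intervals that held 0.

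The number of members past 1.5-fold between the astrocyte groups was 1, 0, 2 and 1 of 8, all with at least 50 UMIs, while 7.32%, 7.44%, 20.2% and 25.1% of all genes with that many UMIs were past the same fold. Of 8 genes, 1 is 12.5%, so these counts are near the background and set the members apart from other genes in no library. The genes past the fold were Aqp4 in the cortex AAV-CTRL library, Aqp4 and Gjb6 in the striatum AAV-CTRL library and Gjb6 in the striatum AAV-VEGF-C library. Thinning to 1000 UMIs brought the first of these to 0.56, and keeping doublets brought Gjb6 in the striatum AAV-CTRL library to 0.58, both just under the fold.

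Between region labels, Aqp4 in astrocyte-like nuclei was higher under the striatum label by log2 ratios of 1.06 (0.97 to 1.15) with AAV-CTRL and 0.72 (0.63 to 0.82) with AAV-VEGF-C. Gjb6 was higher by 0.61 (0.43 to 0.78) and 0.63 (0.47 to 0.80), Dmd by 0.53 and 0.46 and Gja1 by 0.51 and 0.30, and Dtna was lower with ratios of −0.27 and −0.45. The ratios of Dag1 were 0.06 and 0.07 and those of Hepacam 0.08 and 0.11. Past 1.5-fold were 2 and 2 of 8 members, Aqp4 and Gjb6 in both, against 20.2% and 19.8% of all genes, again near the background. Leaving out cluster 6, which was mostly of the striatum label, brought Aqp4 to 0.54 and 0.30, under that fold. Leaving out cluster 3, which was mostly of the cortex label, brought Aqp4 to 1.63 and 1.26 and Gjb6 to 0.38 and 0.44. With astrocytes called 1 by 1 from markers, Aqp4 and Gjb6 under the AAV-VEGF-C label were 0.57 and 0.47. Gjb6 under the AAV-CTRL label was then 0.56, and all of these were under 1.5-fold. Region label, makeup of astrocyte groups and library cannot be told apart in the pooled values, so the ratios were also taken within groups.

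A group need not hold the same kind of astrocyte under both region labels, so these ratios may compare unlike nuclei. Within the Agt/Slc6a11 group the striatum label was higher for Aqp4 by 0.66 and 0.48 and for Gja1 by 0.49 and 0.39. It was also higher for Gjb6 by 0.54 and 0.49, and lower for Dtna with −0.27 and −0.40. Past 1.5-fold were 1 and 0 members against 25.5% and 23.6% of all genes. Without cluster 6 the ratios of Aqp4 there were 0.13 and 0.12. Within the Mfge8/Gldc group Aqp4 gave 0.64 and 0.37, Gja1 0.63 and 0.31, Mlc1 0.60 and 0.20 and Gjb6 0.02 and −0.19, and 3 and 0 members were past the fold against 21.8% and 26.7% of all genes. Gjb6 was thus higher under the striatum label within 1 group and had intervals that held 0 within the other, a difference that was not tested.

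**Figure D3:**
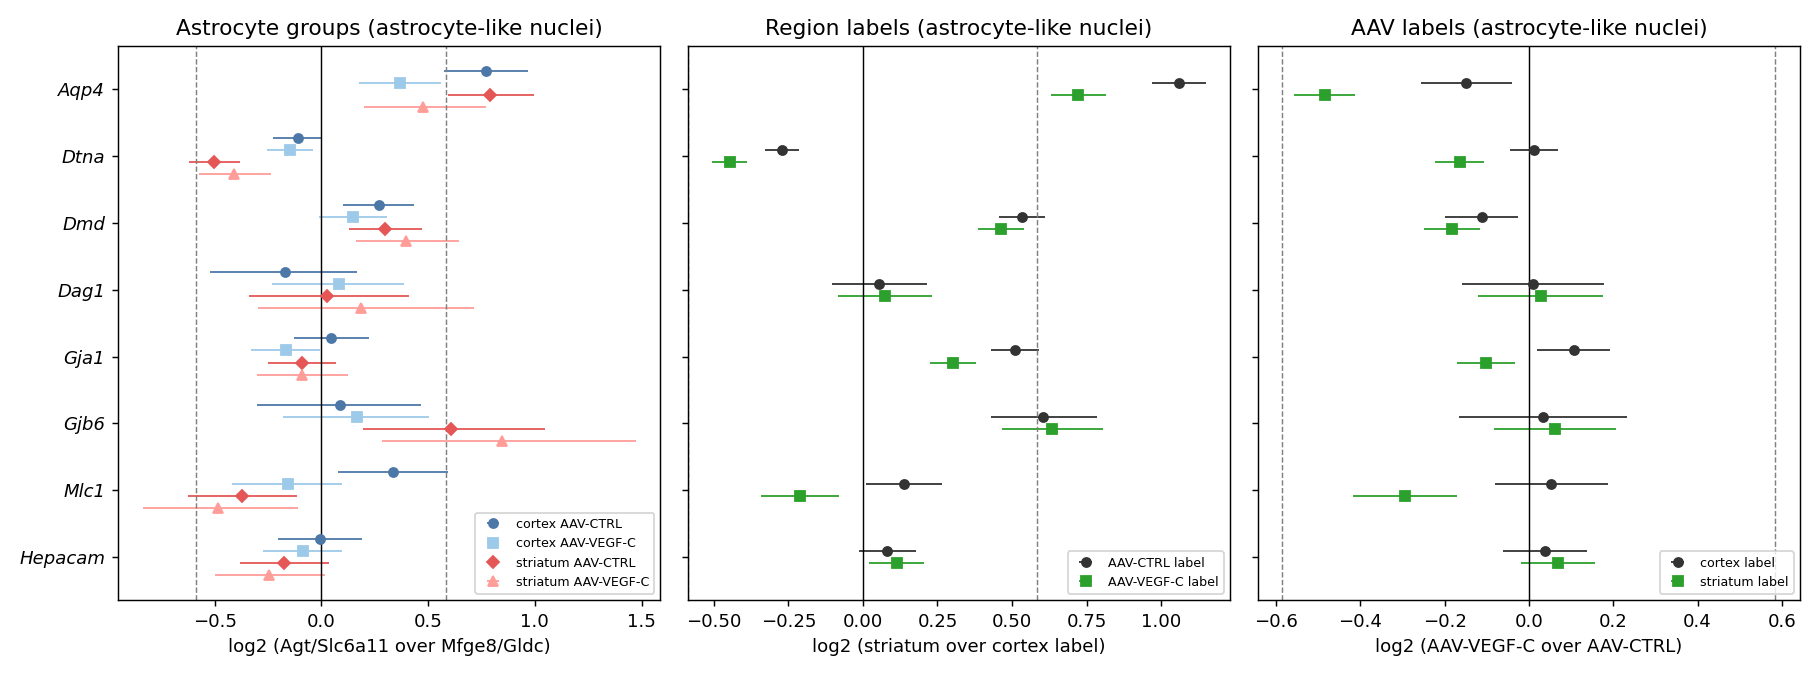
Log2 ratios of the 8 genes in astrocyte-like nuclei between astrocyte groups (left), region labels (middle) and AAV labels (right), with exact conditional binomial 95% intervals. Dashed lines mark 1.5-fold, which Aqp4 and Gjb6 pass in 2 libraries each on the left and under both AAV labels in the middle, and which no gene passes on the right.

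Between AAV labels, 0 and 0 of 8 members were past 1.5-fold in astrocyte-like nuclei under the cortex and the striatum label, against 2.85% and 3.91% of all genes. The median log2 ratio of the members, AAV-VEGF-C over AAV-CTRL, was 0.023 and −0.13, and that of all genes was −0.0064 and −0.0052. Aqp4 had the ratio farthest from 0 under both labels, from 383 to 346 CPM with −0.15 (−0.26 to −0.04) and from 799 to 571 CPM with −0.48 (−0.56 to −0.41). Mlc1 went from 253 to 206 CPM under the striatum label, −0.29 (−0.42 to −0.17), and gave 0.05 under the cortex label. Dtna gave 0.01 and −0.16, Dmd −0.11 and −0.18, and Gja1 0.11 (0.02 to 0.19) and −0.10 (−0.17 to −0.03). For Gjb6, at 0.03 and 0.06, Dag1, at 0.01 and 0.03, and Hepacam, at 0.04 and 0.07, every interval held 0.

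The lower Aqp4 of the AAV-VEGF-C library under the striatum label was seen in several parts of that library. Both libraries of this label also differed in makeup. With AAV-CTRL and AAV-VEGF-C there were 251 and 24 olfactory sensory neuron-like nuclei and 234 and 10 sustentacular-like nuclei, classes of the nasal epithelium. Osteoblast-like nuclei were 138 and 1, neuroblast-like nuclei 623 and 185 and fibroblast-like nuclei 671 and 292. The part of this makeup in the ratio of Aqp4 was not tested. In the Agt/Slc6a11 group the ratio was −0.52 and in the Mfge8/Gldc group −0.21, with an interval that held 0. Without cluster 6, whose share of astrocyte-like nuclei was 6.96% (6.07 to 7.94) with AAV-CTRL and 4.83% (3.93 to 5.86) with AAV-VEGF-C, it was −0.38. Aqp4 was also lower outside astrocytes, in 10 of 12 other classes with at least 50 UMIs, with a median ratio of −0.45 and a range of −1.58 to 0.74. Under the cortex label it was lower in 3 and higher in 4 of 7 such classes, with a median of 0.015. Under the striatum label oligodendrocyte-like nuclei went from 37.6 to 27.0 CPM and neurons outside the named classes from 15.1 to 8.81 CPM. Neither class is known for Aqp4. The part of free RNA in these values was not tested. Over all kept nuclei of the striatum label the ratio was −0.66, past 1.5-fold as were 4.44% of genes. Astrocyte-like nuclei held 5450133 of 65899706 UMIs with AAV-CTRL and 4247225 of 61645718 with AAV-VEGF-C. Their Aqp4 level was 799 and 571 CPM. The ratio over all kept nuclei combines both, and the part of each was not tested.

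Astrocyte-like nuclei were clustered again without the 8 genes and the other endfoot genes, which gave 6 clusters. Cluster 1 (3537 nuclei) was almost all of the striatum label, with 7, 11, 2041 and 1478 nuclei, and clusters 2 (2136 nuclei) and 3 (2122 nuclei) almost all of the cortex label. Cluster 3 had Slc17a7 and Nrgn, genes of excitatory neurons, among its leading genes, and cluster 4 (567 nuclei, median 1083 UMIs) had Slc17a6 and Mobp. Both stood below cluster 2 in summed astrocyte markers, at 17655 and 10812 against 23902 CPM. Cluster 6 (320 nuclei, of which 9, 10, 204 and 97 came from each library) had Gfap, a filament gene of fibrous and reactive astrocytes, at 3419 CPM and Myoc at 1544 CPM. In clusters 1 to 5 Gfap was at 76.8, 41.2, 494, 446 and 194 CPM. Myoc was at 8.81, 5.85, 296, 137 and 22.5 CPM there. Cluster 3, almost all of the cortex label, thus also held both genes. Leaving out cluster 6 took nuclei mostly from the striatum label.

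The 8 genes placed no nucleus in a cluster. Aqp4 and Mlc1 differed more between cluster 6 and cluster 1 than between AAV labels within any cluster. Aqp4 in cluster 6 was 3227 and 2909 CPM under the striatum label, against 504 and 406 in cluster 1, and in clusters 2 and 3 under the cortex label it was 221 and 210 and then 565 and 492. Mlc1 was also highest in cluster 6, with 720 and 592 CPM in cluster 6, 167 and 164 in cluster 1, 164 and 153 in cluster 2 and 302 and 343 in cluster 3. Dmd was lower in cluster 6, at 474 and 418 CPM in cluster 6 against 930 and 815 in cluster 1. Dtna was highest in cluster 5, at 1560 and 1472 CPM, and stood at 839 and 729 in cluster 6. Gjb6 was highest in cluster 1, at 181 and 192 CPM, and lower in cluster 3, at 80.5 and 88.0. Hepacam differed least, at 396 to 511 CPM in all clusters but cluster 4, where it was 284 and 329. Within clusters the AAV ratio of Aqp4 was −0.31 in cluster 1, −0.80 in cluster 5, −0.15 in cluster 6, −0.28 in cluster 4, −0.07 in cluster 2 and −0.20 in cluster 3, and the intervals of clusters 2 and 4 held 0.

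**Figure D4:**
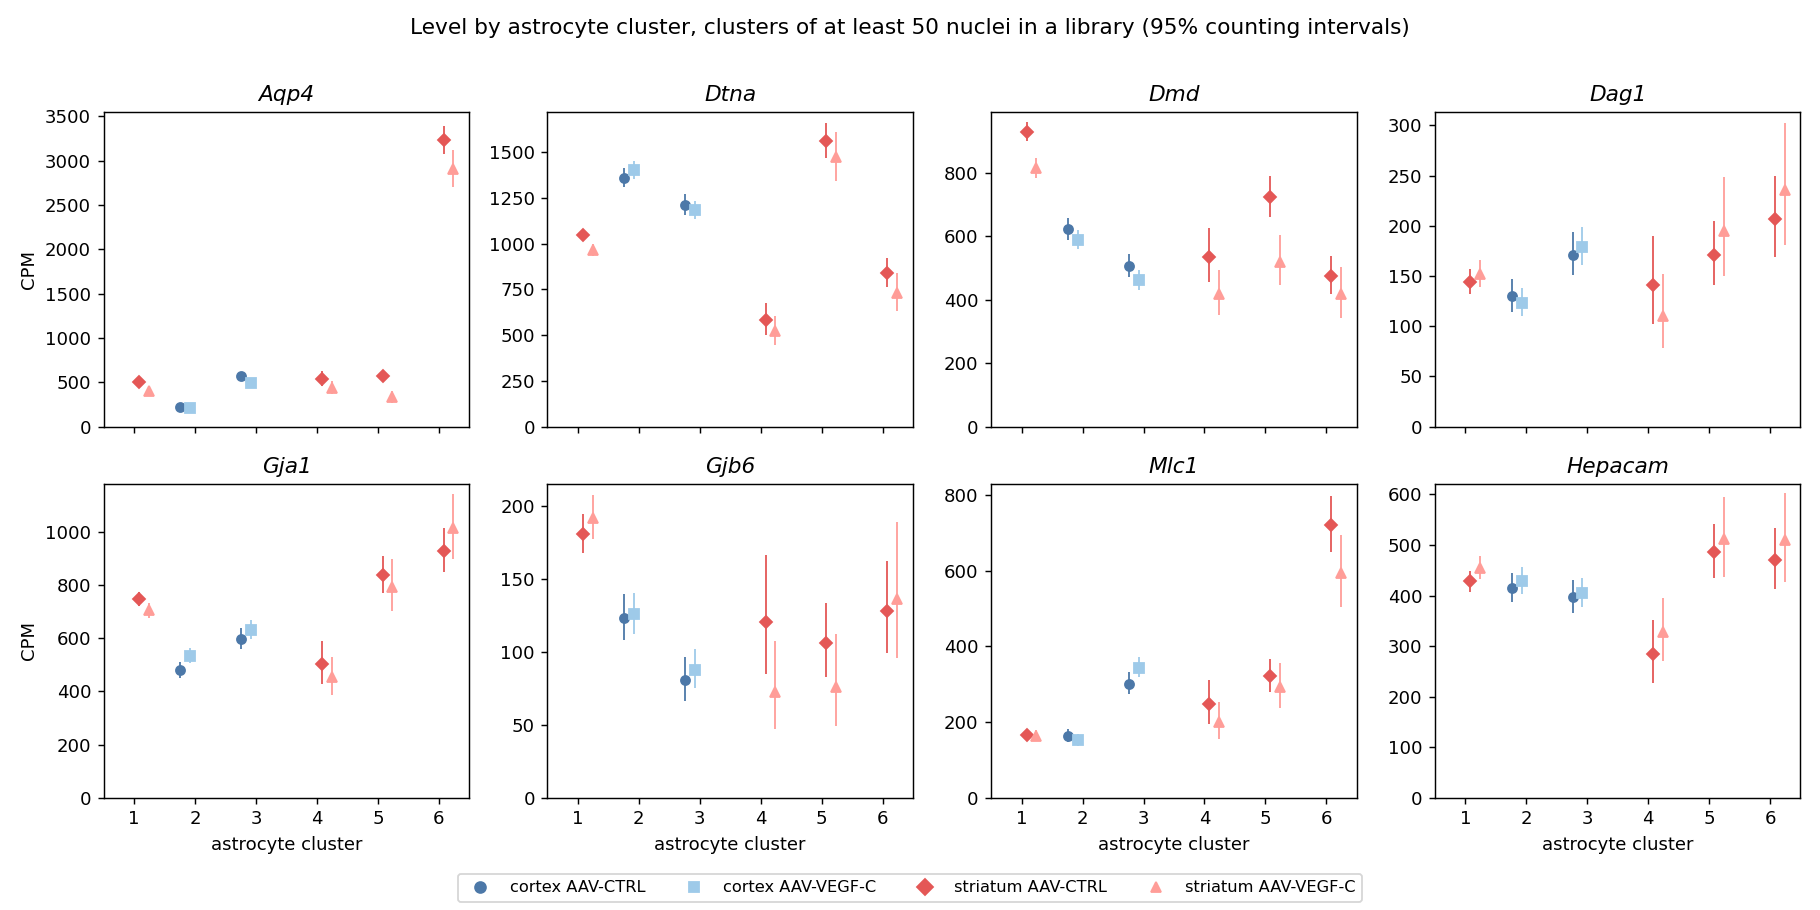
Level of each of the 8 genes in CPM by astrocyte cluster, for clusters with at least 50 nuclei in a library, with exact Poisson 95% intervals. Aqp4 at 3227 and 2909 CPM and Mlc1 at 720 and 592 CPM stand apart in cluster 6, and Dmd and Gjb6 are highest in cluster 1.

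Other genes of the endfoot and of gap junctions were read from a list of 52 genes, of which 51 were in the tables and 32 had at least 50 UMIs in astrocyte-like nuclei of every library. Over all 51, the class with the highest median level was smooth muscle-like for 10, pericyte-like for 7, oligodendrocyte-like for 6 and astrocyte-like for 4, namely B4gat1, Pomt1, Pomt2 and Gpr37l1. The same shares over all genes were not taken, so these counts do not set the list apart. Some leads were slight or low. B4gat1 had 54.8 CPM in astrocyte-like and 54.2 in oligodendrocyte-like nuclei, and Sgca led in smooth muscle-like nuclei at 3.15 CPM. Between astrocyte groups 2, 1, 4 and 4 of the 32 were higher past 1.5-fold, against 3.16%, 3.05%, 12.2% and 15% of all genes, and 1, 0, 0 and 3 were lower, against 4.16%, 4.39%, 7.98% and 10.2%. Kcnj10, the potassium channel found with Aqp4 at endfeet, had the highest median and was at 161, 116, 250.1 and 280.2 CPM in the Agt/Slc6a11 group against 94.7, 95.3, 134 and 136 CPM, with log2 ratios of 0.77, 0.29, 0.91 and 1.05. The syntrophin gene Sntg1 gave 0.39, 0.16, 1.03 and 1.21, the volume-regulated channel gene Lrrc8a 1.05, 0.23, 0.68 and 0.07, and Pomk, a kinase of dystroglycan glycosylation, 0.44, 0.74, −0.29 and 0.44. At the other end were Pomt1 (−0.09, −0.37, −0.32 and −0.54), the sarcoglycan genes Sgcd (−0.35, 0.07, −0.27 and −0.99) and Sgce (−0.60, 0.38, −0.33 and −0.17), and Agrn (−0.15, −0.48, −0.39 and 0.18), which encodes a ligand of dystroglycan.

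Between region labels 6 and 7 of the 32 list genes were higher past 1.5-fold under the striatum label and 0 and 0 lower, against 10.6% and 10.4% of all genes higher and 9.52% and 9.35% lower. The median log2 ratio of the list was 0.18 and 0.14, and that of all genes 0.043 and 0.046. Kcnj10 gave 1.11 and 1.45, Lrrc8a 1.12 and 1.09 and Sntg1 1.03 and 0.90. Between AAV labels 0 and 0 of the 32 were higher past 1.5-fold, against 1.37% and 1.81% of all genes, and 1 and 0 lower, against 1.48% and 2.1%. The lower one was Pomt1 under the cortex label, from 25.2 to 15.7 CPM, with a ratio of −0.69 there and 0.03 under the striatum label.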

How the data were processed

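The deposited UMI counts were raw. The authors counted them with Cell Ranger, 5.0.1 per the file headers and 5.1.1 per the submitters' processing notes, which also list mm10. The gene annotation and the treatment of intronic reads are not given in the sources used here. Doublets (4.69%, 6.00%, 8.29% and 4.56% called by Scrublet in Scanpy 1.11.5) and clusters with at least 40% of them were left out, a minimum of 500 UMIs removed no nucleus, and 16137, 18816, 21275 and 16385 nuclei were kept. Nuclei of all libraries were clustered with the Leiden method (leidenalg 0.10.2, 5000 variable genes, 50 components, 15 neighbours, resolution 1.2) without the 8 genes and the endfoot list, and clusters were named from markers. The 40% threshold and the naming rule were chosen after the clusters had been seen, and classes may differ from those of the study. UMIs were summed per class and library and scaled to 1000000 (CPM). Intervals at 95% are exact Poisson for levels, Clopper-Pearson for shares and conditional binomial for ratios, and cover counting error only. Nuclei are not replicates, so no test was run. Ratio code was tested on simulated data. Genes and lists were chosen with earlier results of these data known. Named were the 8 genes, for each its 3 most similar genes, the 4 list genes with the highest and the 4 with the lowest median ratio between astrocyte groups, and list genes past 1.5-fold in 1 direction between AAV labels under both region labels, of which there were none. Alternatives changed doublet removal, class calls, clustering, depth, weighting, scaling, minimum counts, the astrocyte split and the fold. Leaving out astrocyte clusters 3, 4 or 6 was added after seeing the data.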

Additional observations from a re-analysis of the deposited data

Results flagged for a closer look

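Pairs of log2 ratios with opposite signs, each with a counting interval clear of 0, were found for 2 genes, and the difference was tested in neither case. Gja1 in astrocyte-like nuclei was higher with AAV-VEGF-C under the cortex label (0.11) and lower under the striatum label (−0.10). Mlc1 in astrocyte-like nuclei was higher under the striatum label with AAV-CTRL (0.14) and lower with AAV-VEGF-C (−0.21), but without astrocyte cluster 6 both values were below 0 (−0.15 and −0.39) and without cluster 3 both were above it (0.46 and 0.38), and with the mean over nuclei the first was −0.01. Mlc1 was higher in the Agt/Slc6a11 group than in the Mfge8/Gldc group in the cortex AAV-CTRL library (0.34) and lower under the striatum label with AAV-CTRL (−0.37) and with AAV-VEGF-C (−0.48), and the cortex AAV-VEGF-C library gave −0.16 with an interval that held 0.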

How the results depend on the processing

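Each group is 1 library with 1 replicate number, so no paired test was run and no replicate could be left out. The region ratios were taken within each vector, whose mice gave both regions, and an additive fit of region and AAV label over the 4 libraries was not run. Of 12 ratios past 1.5-fold, 0 changed sign under any alternative. These were picked for lying far from 0, so that says little. All but 1 of the 12 fell under 1.5-fold in at least 1 alternative. Aqp4 between astrocyte groups in the striatum AAV-CTRL library ran from 0.15 to 0.99. Aqp4 between region labels with AAV-CTRL ran from 0.54 to 1.63. Gjb6 between astrocyte groups in the striatum AAV-VEGF-C library stayed past the fold in all 11 alternatives, at 0.71 to 0.97. That ratio rests on 26 Gjb6 UMIs in 115 nuclei of the Mfge8/Gldc group. The alternatives largely reuse the same counts, and its counting interval, given above, reached below the fold. The counts of members past the fold are small, so a shift by 1 gene counts as a change, and the causes were not tested.

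Between astrocyte groups the counts (1, 0, 2 and 1 as reported) became 2, 1, 4 and 5 at a lower fold (an absolute log2 ratio of 0.32). At 2-fold they were 0 in every library. The striatum AAV-CTRL count was 1 with no doublet removal, with each library clustered on its own and without cluster 3. The striatum AAV-VEGF-C count was 2 with each library clustered on its own, with a lead of 2 UMIs in the split and without cluster 3 or 6, and 3 after thinning to 1000 UMIs. A lead of 2 UMIs gave 1 in the cortex AAV-VEGF-C library. Between AAV labels the striatum count was 1 at the lower fold.

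Between region labels the counts with AAV-CTRL and AAV-VEGF-C (2 and 2) became 4 and 4 at the lower fold and 1 and 0 at 2-fold. With AAV-VEGF-C the count was 0 when astrocytes were called 1 by 1 from markers and 1 with each library clustered on its own and without cluster 3 or 6. Within the Agt/Slc6a11 group (1 and 0) they became 4 and 5 at the lower fold. With AAV-CTRL that count was 0 at 2-fold and without cluster 6, and 2 with 1-by-1 calls, thinning or no cluster 3, and with AAV-VEGF-C it was 3 without cluster 3. Within the Mfge8/Gldc group (3 and 0) the AAV-CTRL count was 0 with 1-by-1 calls, median-ratio scaling, a lead of 2 UMIs or 2-fold, and 1 after thinning or with the mean over nuclei. The AAV-VEGF-C count was 1 with 1-by-1 calls, a lead of 2 UMIs, the lower fold or no cluster 3.

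The share of Gjb6 in its pair moved to 18.8% in the striatum AAV-CTRL library with 1-by-1 calls, to 14.9% in the cortex AAV-CTRL library after thinning, and to 20.2% and 18.9% in the libraries labelled cortex without cluster 3. The share of Dmd moved to 45.1% and 44.9% under the striatum label with 1-by-1 calls.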

Other observations

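Other connexin genes marked other classes. Gjb2 was at 282, 217, 266 and 368 CPM in fibroblast-like nuclei, the class with the highest Gjb6, and at 9.16, 7.04, 14.3 and 19.3 CPM in astrocyte-like nuclei. In oligodendrocyte-like nuclei the oligodendrocyte connexin genes stood at 403, 368, 454 and 448 CPM for Gjc3 and at 87.1, 84.0, 95.2 and 113 CPM for Gjb1, and Gjc3 was higher in differentiating oligodendrocyte-like nuclei, at 498 to 621 CPM. In astrocyte-like nuclei Gjc3 stood at 8.31, 14.8, 46.1 and 39.3 CPM, higher under the striatum label as were the summed oligodendrocyte markers there, whose part in this was not tested.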
